A study of Mus musculus with 6 samples.

Results

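Respiratory complexes II to V were followed through 56 genes, measured by 82 probes in 91 spots of an array with 55681 probes in 59305 spots. A spot belonged to the set when the gene symbol in its description was Sdha, Sdhb, Sdhc or Sdhd, or began with Uqcr, Atp5 or Cox and a digit. The choice used names only. The set therefore holds subunits encoded in the nucleus, tissue-specific isoforms and assembly factors. The arrays compared 3 samples of 1G11-mock with 3 samples of 1G11-SOD3 cells. 1G11 is a mouse microvascular endothelial line, of strain C57BL/6NCrLBR per the labels, and 1G11-SOD3 was modified to overexpress SOD3, the secreted superoxide dismutase. Both lines had spent 6 h in medium conditioned by N202.1A murine mammary cancer cells before total RNA was taken, so no sample shows either line without that medium. The sources used here give neither the promoter of the transgene nor whether 1G11-SOD3 is a clone.

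The respiratory chain sits in the inner mitochondrial membrane. Complex II oxidizes succinate in the citric acid cycle and hands electrons to ubiquinone, complex III passes them to cytochrome c, complex IV passes them to oxygen, and complex V makes ATP from the proton gradient that III and IV help to build. Complexes II and III are also known sites of superoxide formation, the substrate of superoxide dismutases. Complex II is encoded wholly in the nucleus, and the others combine nuclear subunits with subunits from mitochondrial DNA. Endothelial cells rely mostly on glycolysis for ATP. The comparison asks whether the transcripts of these complexes differed between the lines. In RNA from whole cultures, a change in the number of cells of one kind and a change in RNA per cell cannot be told apart.

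Some features of the arrays touch the results and come first. A rectangular block in the middle of the array, which has 384 rows and 164 columns of spots, read dim on the 1G11-mock arrays. It holds 8 of the 91 spots, which are therefore given apart from the other 83. All 6 arrays lay on 1 slide, 1G11-SOD3 in one row of arrays and 1G11-mock in the other, so cell line and slide row cannot be told apart. The Sod3 probe lay in the middle as well, at 13.61, 12.66 and 9.86 in 1G11-mock replicates 1 to 3 and 16.37, 16.29 and 16.27 in 1G11-SOD3 (normalized log2 intensity, log2 fold change 4.27 ± 0.70 SE, limma adjusted p = 0.0076). When a smooth surface over array position was taken off each array, its log2 fold change was 2.56 ± 0.45 (SE). Between 34.2% and 43.8% of the spots of an array were well above background, and no non-control spot was saturated on any array. Of 11 endothelial marker genes outside the middle, Eng, Kdr and Vwf had a probe well above background on every array, whereas Cdh5, Emcn, Erg, Tek and Tie1 had none on any array. A further Kdr probe, printed 10 times, averaged 6.84 in 1G11-mock and 6.91 in 1G11-SOD3, near background. Pecam1 exceeded background on 3 arrays, 2 of them 1G11-mock. The summed intensity of that list (log2) ranged from 14.35 to 14.87 over the 1G11-mock arrays and from 13.83 to 14.08 over the 1G11-SOD3 arrays, with Egfl7 called higher and Vwf lower in 1G11-SOD3. For 6 fibroblast and mural markers the sum ranged from 14.41 to 15.13 and from 15.34 to 17.42, with 4 of the 6 genes called higher in 1G11-SOD3 (Acta2, Col1a1, Col1a2 and Pdgfrb) and none at background in both lines. The highest of these sums belonged to 1G11-SOD3 replicate 3, where Dcn read 17.07 beside 13.52 and 13.58 on replicates 1 and 2, whose sums were 15.58 and 15.34. Of 6 leukocyte and 6 epithelial markers, 2 (Cd3e and Itgam) and 1 (Krt19) were bright on every array, and none was called. Itgam was bright at probe A_55_P1977934 only, and its other probes were not above background on any array. The part of these marker differences in the values below was not tested.

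Outside the middle, no probe for complexes II to V passed the test, and the 64 bright ones all differed by less than 2-fold between the lines. A probe was called when its fold change exceeded 2 and its adjusted p was below 0.05 (limma, Benjamini-Hochberg over all 55971 combinations of probe and place). None of the 75 probes of 52 genes there was called in either direction. Among all 49526 probes outside the middle, 0.666% were called higher and 1.19% lower in 1G11-SOD3. None of the 75 passed the adjusted threshold at any fold either, beside 2.01% of all probes there, and 7 had an unadjusted p under 0.05, beside 12.7% of all probes outside the middle. Over the 75 the log2 fold changes had a median of -0.04, beside -0.06 over all probes outside the middle. Of the 75, 64 were well above background on all 6 arrays (bright), with levels between 8.52 and 18.16, and their log2 fold changes ran from -0.61 to 0.87. Equally bright probes are the closer comparison for these 64. Among all 15247 such probes outside the middle, 1.3% were called higher and 3.27% lower, and 4.95% passed the adjusted threshold. An unadjusted p under 0.05 was reached by 24.2% of them and by 9.4% of the 64. The 15247 had a median log2 fold change of -0.17, beside -0.04 for the 64. For 50 of these 64 the 95% confidence interval lay within 2-fold in both directions. For the other 14 the interval reached past 2-fold, so that a difference of that size lay within it. The 3 arrays of one line all read above the 3 of the other for 6 probes in 1G11-SOD3 and for 1 probe in 1G11-mock, beside 8.07% and 20.6% of all probes outside the middle that were as bright.

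**Figure D1:**
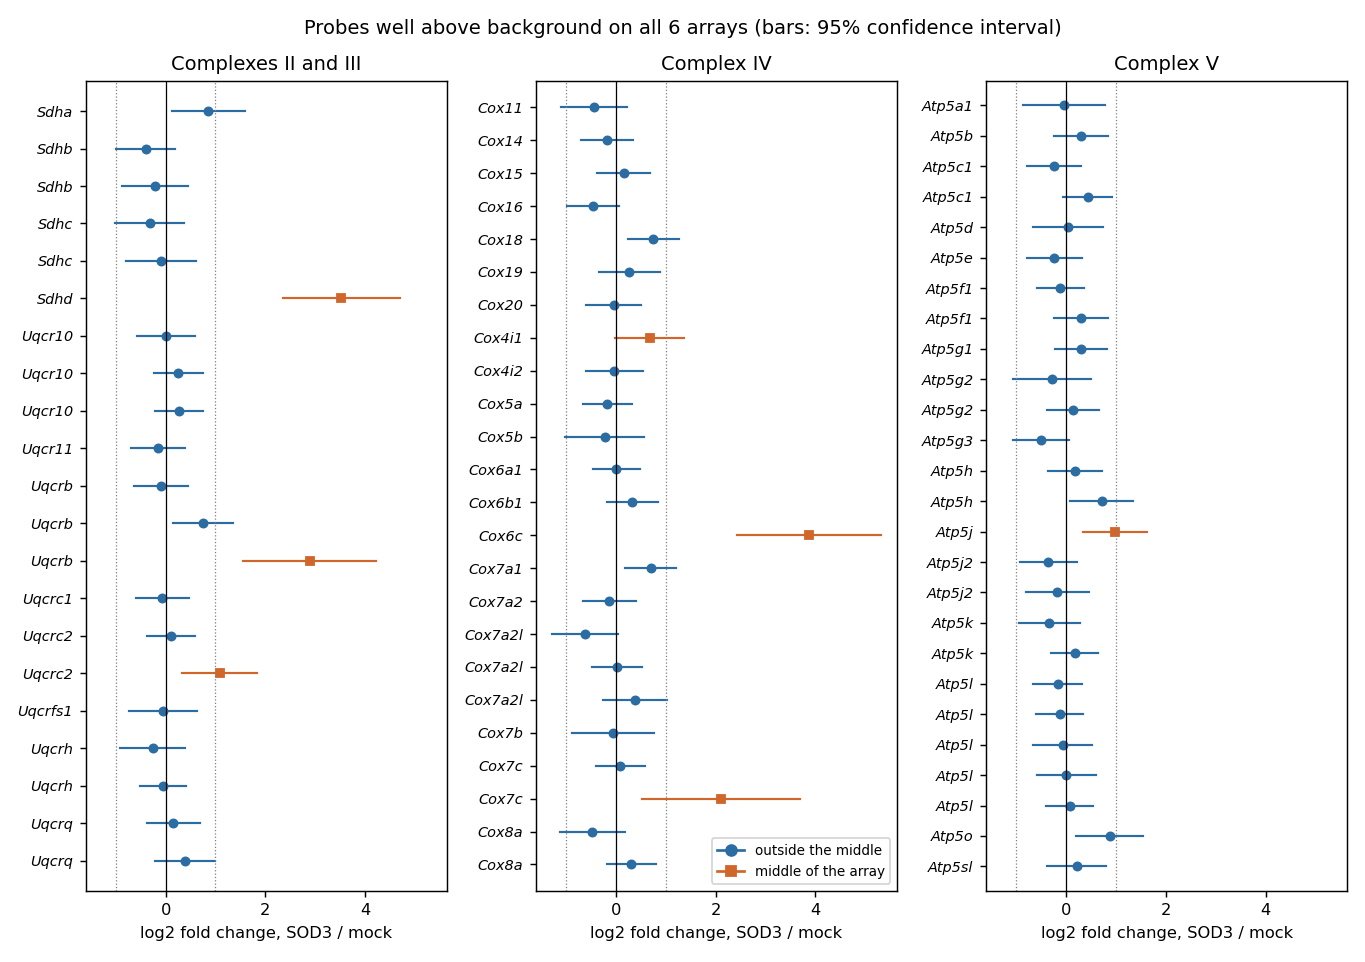
Log2 fold change (1G11-SOD3 over 1G11-mock, x axis) of each probe of complexes II to V that was well above background on all 6 arrays, with its 95% confidence interval from limma (3 arrays per line) and dotted lines at 2-fold. Probes outside the middle of the array (circles) lie between -0.61 and 0.87, and those in the middle (squares) between 0.68 and 3.87.

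Complex II has 4 subunits, and its genes split by place on the array. Sdha, the flavoprotein that carries the succinate-binding site, read 13.82, 13.18 and 12.36 in 1G11-mock and 13.87, 14.20 and 13.86 in 1G11-SOD3. The 1G11-SOD3 arrays all read above the 1G11-mock arrays, the lowest of them barely above the highest, and the log2 fold change of 0.86 ± 0.33 (SE) gave an adjusted p of 0.252. Spots near the Sdha spot had a median log2 fold change of 0.47. Sdhb, the iron-sulfur subunit, gave -0.40 and -0.21 at its 2 probes, and Sdhc, a membrane anchor, gave -0.32 and -0.09, with overlapping arrays at each of these probes. 1G11-SOD3 replicate 1 read low around the Sdhc spot at -0.09, and without that array its value was 0.24. Sdhd, the other membrane anchor, has its spot in the middle and is described with that block.

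In complex III no probe outside the middle was called. Uqcrc1, one of the core proteins, had a log2 fold change of -0.07, and the Rieske iron-sulfur protein Uqcrfs1 one of -0.05. The small subunits Uqcr10, Uqcr11, Uqcrh and Uqcrq lay between -0.26 and 0.39 over 8 probes. The lowest of these values, from a Uqcrh probe, lay where 1G11-SOD3 replicate 1 read low, and was 0.08 without that array. The core protein Uqcrc2 was printed 10 times with the same probe. Its 9 copies outside the middle averaged 14.61, 14.59 and 14.44 in 1G11-mock and 14.44, 14.66 and 14.86 in 1G11-SOD3, a log2 fold change of 0.11 ± 0.22 (SE). With flagged spots kept, single copies outside ran from -0.26 to 0.29.

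Uqcrb, the ubiquinone-binding small subunit, has 3 probes near the end of its coding sequence, and their sequences are shown because 2 that share most of their bases lie in different places on the array. Probe A_55_P1965402 is in the middle, and the capitals mark the 49 of its 60 bases that it shares with probe A_66_P132663, which lies outside and starts 11 bases later. Probe A_55_P2088218 lies outside too, and its capitals mark the 2 of 34 bases at which it differs from A_55_P1965402 over the stretch that their positions share, so it may read a near-identical copy. The positions of all 3 are from the array annotation, on the minus strand, with the build not stated in the files: chr13:67001665-67001724 for A_55_P1965402, chr13:67001654-67001713 for A_66_P132663 and chr13:67001691-67001750 for A_55_P2088218.
A_55_P1965402: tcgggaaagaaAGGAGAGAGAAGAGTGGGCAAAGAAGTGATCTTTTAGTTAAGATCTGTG
A_55_P2088218: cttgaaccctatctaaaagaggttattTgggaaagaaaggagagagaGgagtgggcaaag

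The probe outside that shares 49 bases read 14.79, 14.63 and 15.30 in 1G11-mock and 14.85, 14.59 and 14.99 in 1G11-SOD3, with full overlap and a log2 fold change of -0.10 ± 0.25 (SE). The probe in the middle read 12.67, 10.16 and 9.70 in 1G11-mock and 14.21, 13.37 and 13.63 in 1G11-SOD3. It was called, with a log2 fold change of 2.89 ± 0.61 (SE) and an adjusted p of 0.026. A_55_P2088218 gave 0.75 ± 0.27 (SE), with an adjusted p of 0.212 and a median of 0.39 among its neighbours. Thus 2 probes for the same stretch of Uqcrb, one in the middle and one outside, differed by about 3 log2 units in the comparison of the lines.

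For complex IV, 31 probes of 25 genes lay outside the middle, and 21 of the probes were well above background on all arrays. Among the subunits present in most tissues, Cox5a gave a log2 fold change of -0.17, Cox5b -0.23, Cox6a1 0.00, Cox6b1 0.33, Cox7a2 -0.13 and Cox7b -0.05. Cox8a gave 0.31 at one probe and -0.47 at the other. 1G11-SOD3 replicate 1 read low around the latter spot, and without that array its value was -0.15. Cox7a2l, which takes part in joining complexes III and IV into supercomplexes, had 3 probes at -0.61, 0.02 and 0.38. At the lowest of these probes the arrays did not overlap, with 14.24, 14.18 and 15.31 in 1G11-mock and 13.87, 14.00 and 14.01 in 1G11-SOD3, but the adjusted p was 0.392 and the neighbours had a median of -0.41. The 3 probes of one gene thus spanned 0.99, the widest gap among the 15 genes with more than 1 bright probe outside the middle. In 8 of these 15 genes the probes differed in sign.

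Of the tissue isoforms of complex IV, Cox7a1, known from heart and skeletal muscle, stood furthest from its surroundings. It read 8.97, 9.20 and 9.29 in 1G11-mock and 9.64, 10.16 and 9.75 in 1G11-SOD3, so that every 1G11-SOD3 array was above every 1G11-mock array. The log2 fold change was 0.70 ± 0.23 (SE), with an adjusted p of 0.168, while spots near it had a median of -0.21 and 95.8% of them read below it. 1G11-SOD3 replicate 1 read low around this spot. Relative to the mean of replicates 2 and 3, the neighbours had a median of -0.88 on that array and Cox7a1 had -0.31. Without that array the Cox7a1 value was 0.79 (limma adjusted p = 0.249). When a smooth surface over array position was taken off each array and dim probes were left out, the Cox7a1 value was 1.07 with an adjusted p of 0.043, in a setting that called 2.23% of the probes outside the middle higher. It was 1.11 with a limma adjusted p of 0.028 on the scanner's processed signal. That setting called 1239 of all 55971 probes higher and 9966 lower, and all probes outside the middle had a median of -0.49 in it. With dim probes kept, the position-adjusted p was 0.065. Its probe, shown because it is the member whose call turned on these settings, spans chr7:30970337-30970948 on the plus strand in the array annotation and thus an intron.
A_51_P148612: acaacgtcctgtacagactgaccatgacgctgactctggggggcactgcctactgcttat

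Cox4i2, the isoform known from lung and induced by low oxygen, read 8.23, 8.80 and 8.59 in 1G11-mock and 8.08, 8.75 and 8.70 in 1G11-SOD3, a log2 fold change of -0.03 ± 0.26 (SE). Cox6a2, the muscle isoform, and Cox6b2, the testis isoform, were above background on some arrays only. Cox7b2, Cox8b and Cox8c stayed near background throughout, and no fold is given for them. Cox4i1 and Cox6c, which are ubiquitous subunits, have their spots in the middle.

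The 9 assembly factors of complex IV with a Cox symbol all lay outside the middle. Cox18, which inserts a mitochondrially encoded core subunit into the membrane, read 10.12, 10.16 and 9.69 in 1G11-mock and 10.60, 10.93 and 10.67 in 1G11-SOD3. The groups did not overlap, the log2 fold change was 0.75 ± 0.23 (SE), and the adjusted p of 0.133 was the lowest among the 75 probes. Its neighbours had a median of 0.46, and the position-adjusted value was 0.36. Cox11 and Cox19, which act in copper delivery, gave -0.43 and 0.27, and Cox14, Cox16 and Cox20 gave -0.18, -0.46 and -0.05 at their bright probes. Cox15, the heme A synthase, gave 0.16 at its bright probe. Cox10, which makes heme O, was above background on 2 arrays of each line, and the 2 probes of the copper chaperone Cox17 were not above background on any.

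In complex V, 26 probes of 16 genes lay outside the middle and 25 of them were bright on all arrays. The catalytic head subunits Atp5a1 and Atp5b gave log2 fold changes of -0.04 and 0.29, and Atp5d and Atp5e of the central stalk gave 0.03 and -0.24. Atp5c1, the rotating gamma subunit, gave 0.43 and -0.25 at its 2 probes. Atp5o, the stalk protein that confers oligomycin sensitivity, had the highest value outside the middle, with 13.44, 12.76 and 12.26 in 1G11-mock and 13.81, 13.88 and 13.38 in 1G11-SOD3. These arrays overlapped, and the log2 fold change of 0.87 ± 0.31 (SE) had an adjusted p of 0.195. Its neighbours had a median of 0.14, and 96.4% of them read below Atp5o. Atp5h, the d subunit of the peripheral stalk, gave 0.71 at one probe, without overlap, and 0.18 at the other, with neighbour medians of 0.41 and -0.14.

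The 3 genes that encode the identical c subunit of the membrane rotor gave mixed values. Atp5g1 gave 0.29 ± 0.24 (SE), Atp5g2 gave 0.14 and -0.28 at its 2 probes, and Atp5g3 gave -0.50 ± 0.26 (SE, adjusted p = 0.409). The lower Atp5g2 probe rests on 2 1G11-SOD3 arrays, since its spot was flagged on replicate 2, and the same holds for a probe of Atp5j2 at -0.36. The 5 probes of Atp5l lay between -0.17 and 0.07. The array annotation puts the 2 Atp5k probes on chromosome Y, whereas RefSeq has the gene on chromosome 5, so their values of -0.34 and 0.17 may include a copy. Atp5s and Atp5sl, which are named for the complex but are not core subunits, gave 0.50 and 0.21, the former with 1 1G11-mock array not above background.

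In the middle of the array, 3 of 8 probes were called higher in 1G11-SOD3 and none lower, where 0.0622% of all middle probes were called lower. The block was set apart because it read dim on the 1G11-mock arrays, so a count of higher probes in it is a description. Of all 6435 probes in the middle, 11.9% were called higher, as were 24.3% of those well above background on all arrays. The 8 probes had a median of 1.60 on the log2 scale. Cox6c, a small subunit of complex IV, read 13.75, 10.46 and 10.85 in 1G11-mock and 15.65, 15.35 and 15.69 in 1G11-SOD3 (3.87 ± 0.66 SE, adjusted p = 0.0089). Sdhd read 12.68, 11.26 and 9.93 in 1G11-mock and 15.22, 14.48 and 14.76 in 1G11-SOD3 (3.53 ± 0.53 SE, adjusted p = 0.0049). Uqcrb was the third. The 1G11-mock arrays had SDs of 1.80 (Cox6c), 1.38 (Sdhd) and 1.60 (Uqcrb), and the 1G11-SOD3 arrays SDs of 0.18, 0.37 and 0.43. Replicate 1 was the highest of the 1G11-mock arrays at each of them.

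The other middle probes were not called. Cox7c, a small subunit of complex IV, read 13.02, 12.46 and 9.33 in 1G11-mock and 13.48, 13.88 and 13.76 in 1G11-SOD3 (2.11 ± 0.72 SE, adjusted p = 0.178), whereas its probe outside the middle gave 0.09 ± 0.22 (SE). A further Cox7c probe in the middle stayed near background throughout. Atp5j, the F6 subunit of complex V, gave 0.98 ± 0.29 (SE, adjusted p = 0.117) and Cox4i1, the common form of the subunit that Cox4i2 replaces, gave 0.68 ± 0.31 (SE, adjusted p = 0.356), both without overlap. In all, 6 of the 7 bright middle probes read without overlap, beside 57.9% of all bright probes of the block. The middle copy of Uqcrc2 was flagged on 1G11-mock replicates 1 and 3, and its value of 1.08 ± 0.33 (SE, adjusted p = 0.148) rests on 1 1G11-mock array. With flagged spots kept it was 2.20, beside 0.11 for the copies outside.

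**Figure D2:**
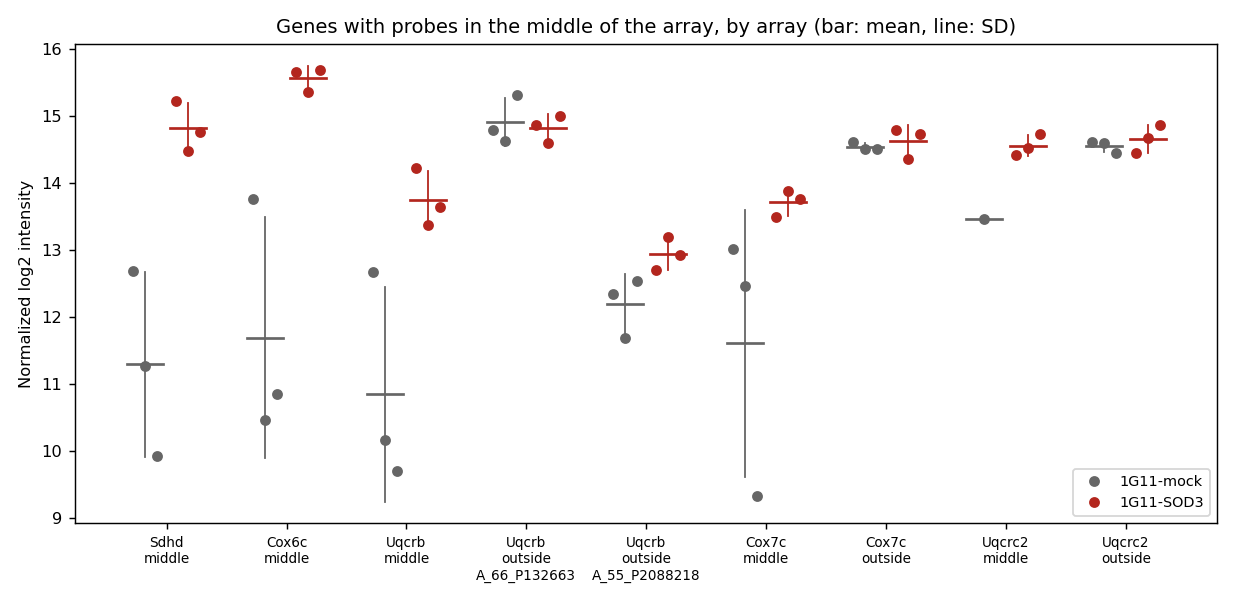
Normalized log2 intensity (y axis) on each 1G11-mock and 1G11-SOD3 array for the 3 most changed genes of the middle and for the genes that have probes both there and outside, with group mean (bar) and SD (line). Outside the middle, Uqcrb gave log2 fold changes of -0.10 (A_66_P132663) and 0.75 (A_55_P2088218), Cox7c 0.09 and Uqcrc2 0.11, and in the middle the same genes gave 2.89, 2.11 and 1.08.

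The values of the middle probes were next set against those of the spots printed around them, which measure unrelated genes. Neighbours were the spots within 12 rows and 6 columns that were well above background on at least 3 arrays, 56 to 142 of them per spot. The neighbours of Cox6c had a median log2 fold change of 2.54 with quartiles at 1.69 and 3.48, those of Sdhd 2.17 with quartiles at 1.54 and 2.94, and those of Uqcrb 2.21 with quartiles at 1.45 and 3.17. Cox6c and Sdhd thus lay above the upper quartile of their surroundings, with 83.0% and 84.5% of the neighbours below them, and Uqcrb lay within the quartiles. Cox7c, Atp5j and Cox4i1 lay within theirs too, with medians of 1.56, 0.93 and 0.66. After position adjustment, Cox6c had a log2 fold change of 1.16 ± 0.42 (SE, adjusted p = 0.148), Sdhd 1.12 ± 0.34 (SE, adjusted p = 0.102) and Uqcrb 0.62 ± 0.34 (SE, adjusted p = 0.329), and no middle member was called. With dim probes left out as well, none was called either, beside 5.11% of all middle probes called higher. Atp5j then had 0.11, Cox4i1 0.01 and Uqcrc2 -0.04.

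**Figure D3:**
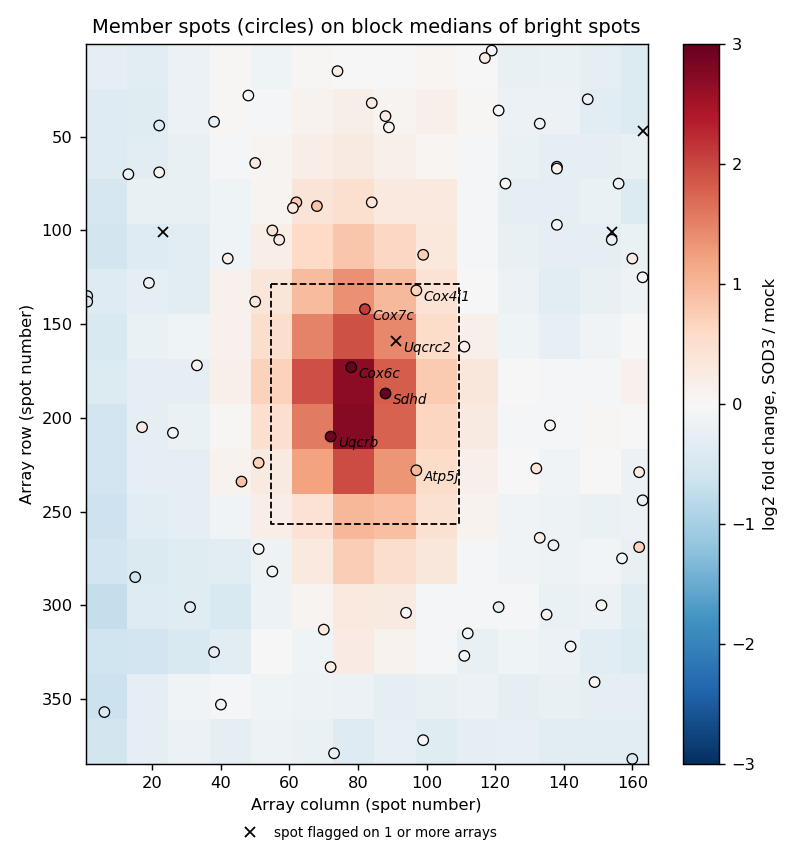
Map of the array with rows and columns as spot numbers, colored by the median log2 fold change (1G11-SOD3 over 1G11-mock) of bright spots in each block, with spots of complexes II to V as circles in the same colors, crosses for spots flagged on 1 or more arrays and the middle as a dashed box. Cox6c, Sdhd and Uqcrb sit on the highest blocks, where their neighbours had medians of 2.54, 2.17 and 2.21.

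Outside the middle the members followed their surroundings as well, over a smaller range. Neighbour medians ran from -0.65 to 0.47 there, and across 69 bright spots the log2 fold change of the spot and the median of its neighbours had a Pearson r of 0.75 and a Spearman rho of 0.72. These points share the same 6 arrays and include 8 copies of 1 probe, so the correlation is given as a description. Of the 69 spots, 48 lay within the quartiles of their neighbours. Of the 15 probes named for the size of their difference, 6 lay above the upper quartile of their neighbours, for Sdha, Uqcrb, Uqcrq, Uqcr10, Cox7a1 and Atp5o, and the other 9 lay within the quartiles. Position adjustment narrowed the spread of the 64 bright probes outside from an SD of 0.34 to 0.24.

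**Figure D4:**
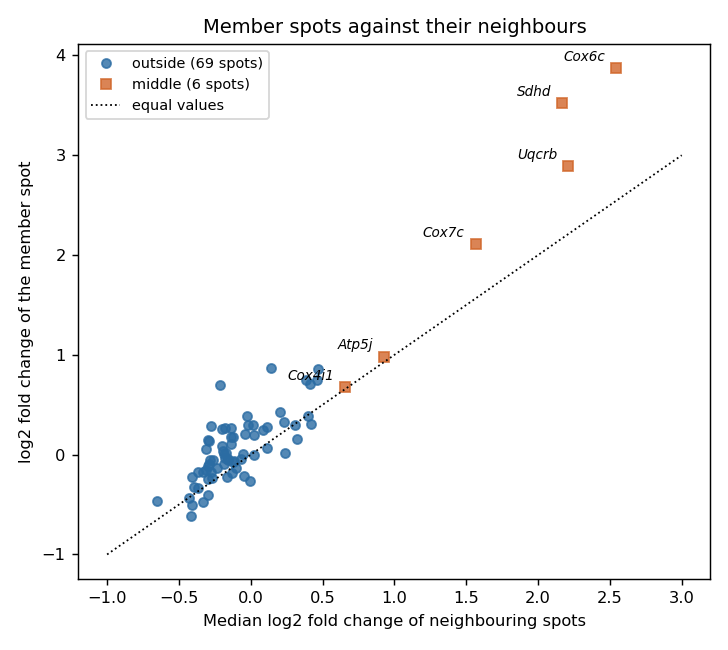
Log2 fold change (1G11-SOD3 over 1G11-mock) of each bright spot of complexes II to V (y axis) against the median of its neighbouring spots (x axis), with a dotted line of equal values. Spots outside the middle (69) cluster along the line between -0.65 and 0.47 on the x axis, and Cox6c and Sdhd lie above it in the middle.

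1G11-SOD3 replicate 1 read low in the lower right of the array. For 14 bright spots outside the middle, from row 244 and column 99 on, the neighbours read over 0.5 lower on that array than on the mean of the other 2 1G11-SOD3 arrays, a threshold chosen after the values had been seen. Of these 14 spots, 13 read low themselves, with a median of -0.98, while the other 56 had a median of 0.14. The genes include Atp5a1, at 13.93 in replicate 1 beside 15.48 and 15.52, Cox7b, at 14.69 beside 15.92 and 16.38, and Cox5b, at 14.75 beside 16.25 and 15.96. Without replicate 1, the log2 fold changes of these 3 genes went from -0.04 to 0.48, from -0.05 to 0.43 and from -0.23 to 0.22, none of them called (adjusted p from 0.566 to 0.872).

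**Figure D5:**
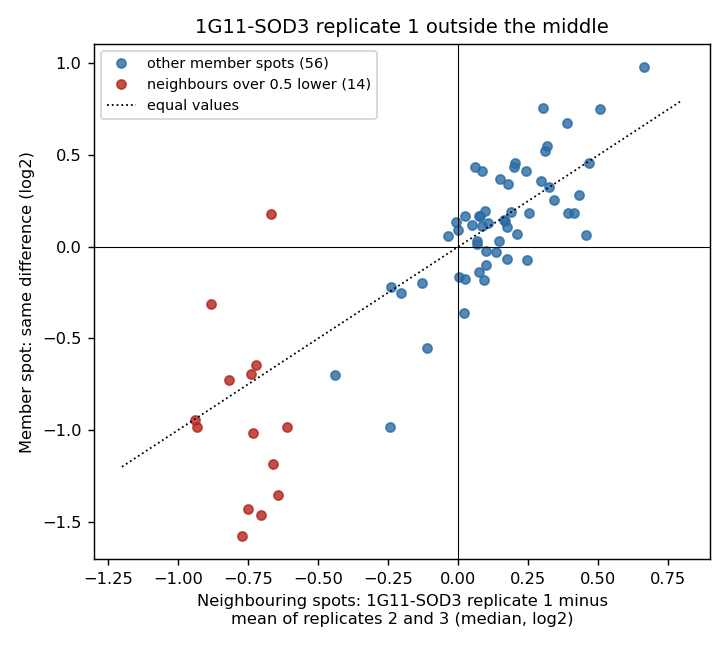
Difference between 1G11-SOD3 replicate 1 and the mean of replicates 2 and 3 (log2) for each bright spot of complexes II to V outside the middle (y axis) against the median of the same difference among its neighbours (x axis). The 14 spots with low neighbours have a median of -0.98, and the other 56 spots one of 0.14.

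Genes that work with the 4 complexes but fall outside the naming rule were read from a list of 56 symbols, of which 40 were on the array. Outside the middle, 36 of them had 51 probes, with 1 called higher, none lower and a median log2 fold change of -0.02. Of all probes there, 0.666% were called higher and 1.19% lower. The called gene was Taco1, which supports translation of a mitochondrially encoded subunit of complex IV, at 1.32 ± 0.30 (SE, adjusted p = 0.041), and it was above background on 1 of 3 1G11-mock arrays. Its call was lost whenever any one array was left out. The electron carriers Cyc1 and Cycs gave -0.07 and, at the brightest Cycs probe, 0.58 without overlap (adjusted p = 0.238). After position adjustment with dim probes left out, that Cycs probe had 0.78 (limma adjusted p = 0.030), under 2-fold and so not called. A further bright Cycs probe gave 0.35, and 0.34 after position adjustment. Lrpprc, which stabilizes mitochondrial mRNA, gave -0.79 without overlap (adjusted p = 0.133), and -0.26 after position adjustment with dim probes left out (limma adjusted p = 0.396). Tfam, the packaging factor of mitochondrial DNA, gave 0.09 to 0.12 at 3 probes. Both Ppargc1a probes and the Ppargc1b probe, for coactivators that drive mitochondrial gene expression, were above background on at most 1 array. In the middle, 1 of 6 genes was called higher, the transcription factor Nrf1 at 1.34 (adjusted p = 0.032), whose 2 probes outside gave 0.05 and -0.03 with not all arrays above background. Of all probes in the middle, 11.9% were called higher, as were 24.3% of those well above background on all arrays. The Nrf1 call was lost in 5 of the 6 fits that left out an array (limma adjusted p from 0.062 to 0.133), with the processed signal (0.62, adjusted p = 0.163) and after position adjustment (0.27, adjusted p = 0.535). It was also lost with an offset of 16 (limma adjusted p = 0.058) and with a variance trend (limma adjusted p = 0.0502). The list also held genes encoded in mitochondrial DNA, such as mt-Cytb, but none was found by its symbol, so they were not analysed.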

How the data were processed

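Total RNA of 3 1G11-mock and 3 1G11-SOD3 samples was labeled with Cy3 and hybridized to single-color Agilent arrays. Per the file headers, the authors deposited spot intensities from Feature Extraction 10.7.3.1, not normalized between arrays. They also deposited a log2 table, made with limma per the labels and used here as an alternative. Its values were recomputed to within 0.005 from the median pixels. Here, control spots were removed, mean intensities were corrected by normexp (offset of 50), taken to log2 and quantile normalized, and flagged outlier spots were left out. Copies of a probe were averaged inside and outside the middle separately. The lines were compared by limma 3.58.1 in R 4.3.3. For position adjustment, mgcv 1.9.3 fitted a surface (17 basis functions per axis) to each array, which lowered the SD among copies of held-out probes from 0.44 to 0.21. The steps were tested on simulated data.

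Members, lists and alternatives were chosen with earlier results of these data known. The genes named are those called, the 4 with the largest change per complex outside the middle, those with spots in both places, isoform sets, called genes of the wider list, and Sod3. Others were named after their values were seen. The study's design text calls the replicates biological. The main fit did not pair the arrays, and the sources do not say whether same-numbered arrays were cultured together. Deviations from the group means correlated at 0.17, 0.10 and 0.16 between arrays of the same number. Pairing by replicate number was therefore run only as an alternative, the replicate block. The 3 arrays per line limit the precision. All 56 genes matched RefSeq (GRCm38.p6) by accession, 3 under a new symbol. Figures were made with matplotlib 3.10.9. Alternatives set the offset to 16, skipped background correction, or used median pixels, the processed signal, scaling to the 75th percentile, cyclic loess, bright probes only, flagged spots kept, a variance trend, the replicate block, the deposited table, copies averaged over both places, position adjustment, the middle left out and each array left out. Position adjustment with dim probes left out was added after seeing the data.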

Additional observations from a re-analysis of the deposited data

How the results depend on the processing

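No result changed direction as a call. Outside the middle, 0 members were called lower in every alternative, and 1 was called higher (Cox7a1) with the processed signal and with position adjustment without dim probes, and 0 otherwise. The processed signal called 1239 of all 55971 probes, in and out of the middle, higher and 9966 lower. Position adjustment without dim probes called 2.23% of the probes outside higher and 1.88% lower. Calls lower over all probes ran from 286 to 1590 in the alternatives other than the processed signal. The median of the members outside the middle is given with that of all probes outside in parentheses. It was 0.18 (-0.49) with the processed signal, 0.076 (-0.35) with scaling to the 75th percentile and 0.11 (0.10) with position adjustment. With that adjustment and dim probes left out it was 0.11 (0.071), and 0.079 (-0.0035) with the middle left out. With each array left out it ran from -0.012 to 0.039 (-0.076 to -0.039). In the main fit, 27034 of all 49526 probes outside were not above background on any array. In the middle, 5 members were called with scaling to the 75th percentile, 2 without background correction, where Uqcrb lost its call (limma adjusted p = 0.081), 0 with position adjustment, 0 with it and dim probes left out, and 1 to 3 with each array left out. Calls over all probes, in and out of the middle, moved too. Of 55971, 1097 were called higher in the main fit, 1603 with that scaling, 691 without background correction and 646 with position adjustment. Leaving dim probes out as well gave 533 of 20876, and leaving out each array gave 494 to 1339 of 55971. The middle median, with that of all middle probes in parentheses, was 0.92 (-1.27) with the processed signal and 0.25 (-0.69) with position adjustment. It was 0.39 (0.069) with dim probes left out too, and 1.03 to 2.55 (0.092 to 0.27) with each array left out. Outside the middle, the wider list had 0 called genes without background correction, with an offset of 16, with position adjustment with or without dim probes, and 0 with any array left out. With the processed signal it had 1 called gene, which was not Taco1, since Taco1 lost its call there (1.33, limma adjusted p = 0.064). Sdhd was called in all 6 fits that left out an array (2.84 to 4.23). Cox6c lost its call without 1G11-mock replicate 2 or 1G11-SOD3 replicate 3 (adjusted p up to 0.058), and Uqcrb was called in 2 of the 6 (adjusted p up to 0.135). Uqcrc2 in the middle could not be fitted without 1G11-mock replicate 2. With the replicate block, 3 members were called in the middle and 0 outside, and the pairing changed no call among the members or the wider list, while calls over all probes went to 1489 higher and 789 lower. The median of all probes was -0.52 with the processed signal and -0.33 with scaling to the 75th percentile, beside -0.03, and calls over all probes went from 1097 higher and 595 lower to 1239 and 9966, and to 1603 and 1093. The cause of these changes was not tested.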

Other observations

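Promoters of these genes are known to hold sites for the transcription factor NRF1 and for ETS factors such as GABPA. In RefSeq (GRCm38.p6), 44 of the 56 genes had a window from 250 bases before to 50 after the transcription start. The letters CCGGAAG, an ETS core, stood on either strand in 17 of the 44 (38.6%), beside 9.93% of all 27025 genes with a window. The letters GCGCATG, part of the NRF1 site, stood in 8 of the 44 (18.2%, among them Atp5g2, Cox6a1, Sdhb and Uqcrc1), beside 4.41% of all genes. The windows of all genes include many that are not expressed in these cells. The arrays gave Gabpa log2 fold changes of -0.31 and 0.25 at 2 probes outside the middle, neither called. These matches are a description of the windows and say nothing of binding.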
